A study of Homo sapiens with 2 samples.

Results

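The results concern both arms of one microRNA hairpin, hsa-miR-21-5p and hsa-miR-21-3p, in small RNA recovered from MDA231 lysate on an affinity resin. They were taken by exact name, 2 of 2588 mature miRNA names. MDA231, also written MDA-MB-231, is a mesenchymal triple-negative breast cancer line, labelled parental in both samples. In the bait library the RNA substrate was lncRNA MACC1-AS1-MS2, the long non-coding RNA MACC1-AS1 made in vitro with T7 polymerase and tagged with MS2 hairpins. The tag tethered it to amylose resin through maltose-binding protein joined to MS2 coat protein. The no-bait library had the RNA substrate given as None, so no tag-only or unrelated RNA served as control. Its protocol text repeats that of the bait, and whether its resin carried the coat protein fusion is not stated. MACC1-AS1, the MS2 tag, the presence of any RNA and, if the control lacked it, the coat protein cannot be told apart. Each group was 1 library from the same line, with 1047269 counts with bait and 269716 counts without, so the spread between replicates is unknown and no p-value was computed from the counts.

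MicroRNA hairpins are cut by Drosha and Dicer into a duplex whose strands come from the 5p and the 3p arm. One strand, the guide, is kept in Argonaute and pairs with target RNAs mainly through its seed, while the other, the passenger, is mostly degraded. For miR-21 the guide is the 5p arm, an oncogenic miRNA raised in breast and many other tumours, transcribed under STAT3 and AP-1, and known to repress PDCD4, TPM1 and RECK. The 3p arm is the passenger and is usually found at far lower levels.

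MIR21 (ENSG00000284190.1) is annotated by GENCODE 29 on GRCh38 at chromosome 17, 59841266 to 59841337, plus strand, inside the gene VMP1, which encodes a membrane protein of autophagy. Of 17 annotated VMP1 transcripts, 1 spans the hairpin, and it covers it with an exon of a retained-intron transcript. The hairpin has 72 bases. The sequences below are from RefSeq (GRCh38.p14) and are shown because the arms and the seed define what was counted. In the hairpin the capitals mark the 5p arm, bases 8 to 29.
MIR21 hairpin: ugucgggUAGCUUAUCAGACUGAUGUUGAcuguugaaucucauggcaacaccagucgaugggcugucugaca
In the mature sequences the capitals mark the seed, bases 2 to 8.
hsa-miR-21-5p: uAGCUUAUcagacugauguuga
hsa-miR-590-5p: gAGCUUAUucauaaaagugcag
Among 2370 mature names in the sequence table, hsa-miR-590-5p (chromosome 7, 74191213 to 74191234, plus strand) was the only other holder of this seed, so both are taken to recognise overlapping sets of targets.

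How reads matching several names were divided is not given in the labels or file headers. No other name in the sequence table carried the sequence of miR-21-5p, and the longest exact run that another name shared with it was 9 bases. The names with such a run were hsa-miR-374a-3p and hsa-miR-873-3p, shown with the shared run in capitals.
hsa-miR-374a-3p: CUUAUCAGAuuguauuguaauu
hsa-miR-873-3p: ggAGACUGAUGaguucccggga
Their counts were small beside those of miR-21-5p, at 109 counts with bait and 17 without for miR-374a-3p, and 1 count with bait and 0 without for miR-873-3p.

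The guide arm miR-21-5p was among the most abundant miRNAs on the resin whether or not RNA was tethered to it. It had 174986 counts with bait, 167088 RPM (reads per 1000000 miRNA counts), and 26251 counts without bait, 97328 RPM. These levels are 16.7% of the bait library (exact Clopper-Pearson 95% interval 16.6% to 16.8%) and 9.73% of the no-bait library (9.62% to 9.85%). Every interval given here covers counting error only, since reads without molecular identifiers are not independent molecules. The arm had rank 2 of 651 detected names with bait, below miR-100-5p, and rank 3 of 476 detected names without bait, below miR-100-5p and miR-92a-3p.

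The passenger arm miR-21-3p was rare in both libraries and close to absent without bait. It had 72 counts with bait, 68.8 RPM (53.8 to 86.6), and 2 counts without bait, 7.42 RPM (0.898 to 26.8). The intervals of the libraries do not overlap. With bait it ranked 152, tied with 1 other name. Without bait it shared its count with 60 other names, below 290 more abundant ones, and lay under the floor of 3 counts, which is 11.1 RPM there.

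**Figure D1:**
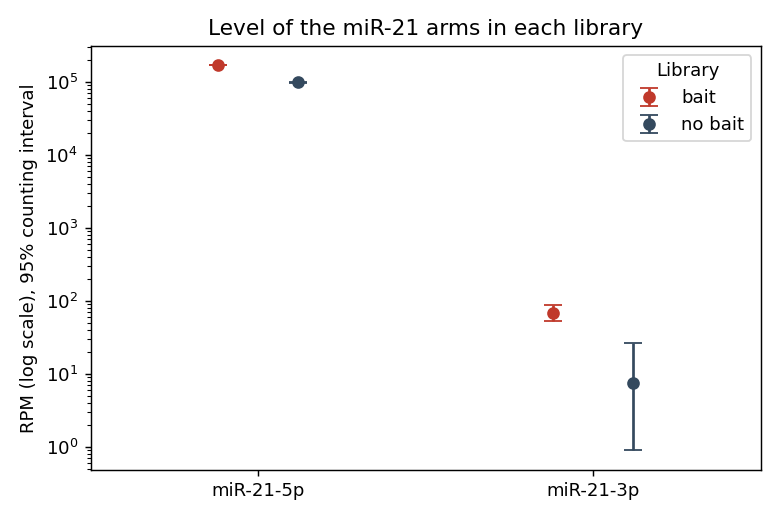
RPM of miR-21-5p and miR-21-3p (log scale) in the bait library (red) and the no-bait library (dark), with exact 95% counting intervals. The 5p arm lies at 167088 RPM with bait and 97328 RPM without, and the 3p arm at 68.8 RPM and 7.42 RPM, where the interval without bait is wide because it rests on 2 counts.

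Both arms took a larger share of the bait library, and the passenger arm by the larger factor. A miRNA was tested at 30 or more counts over both libraries, and called higher or lower at a bait over no-bait ratio of RPM of at least 2 or at most 0.5 where the exact conditional 95% interval excluded 1. The ratio of miR-21-5p was 1.72 (1.69 to 1.74), a log2 ratio of 0.78. It passed neither rule, although its counting interval lay wholly above 1. The ratio of miR-21-3p was 9.27 (2.48 to 78.0), a log2 ratio of 3.21, and it was called higher. With 2 counts without bait, this arm could reach the minimum of 30 counts only through the bait library. A ratio above 2 thus followed from its being tested, and passing that limit is not a separate result. Scaled to the smaller no-bait total, the 72 bait counts of miR-21-3p correspond to 18.5 counts, against 2 observed without bait.

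The call on miR-21-3p is to be read against a broad shift between these libraries. Of 231 tested miRNAs 91, or 39.4%, were called higher with bait, and 62, or 26.8%, were called lower, so 1 of 2 arms called higher is near the background. The excess of higher calls was not kept without the count minimum, where 95 were called higher and 100 lower. By ratio miR-21-3p stood at place 22 of 231 and miR-21-5p at place 106. In this ranking a count of 0 was replaced by the floor of 3 counts, while the 2 counts of miR-21-3p were kept. Names absent without bait could thus stand below it, as did miR-193b-3p at place 30, with 87 counts with bait and 0 without. The median log2 ratio of all tested miRNAs was 0.55. miR-21-5p lay 0.23 above that median and miR-21-3p 2.67 above it, distances that are the same under any scaling by 1 factor per library.

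**Figure D2:**
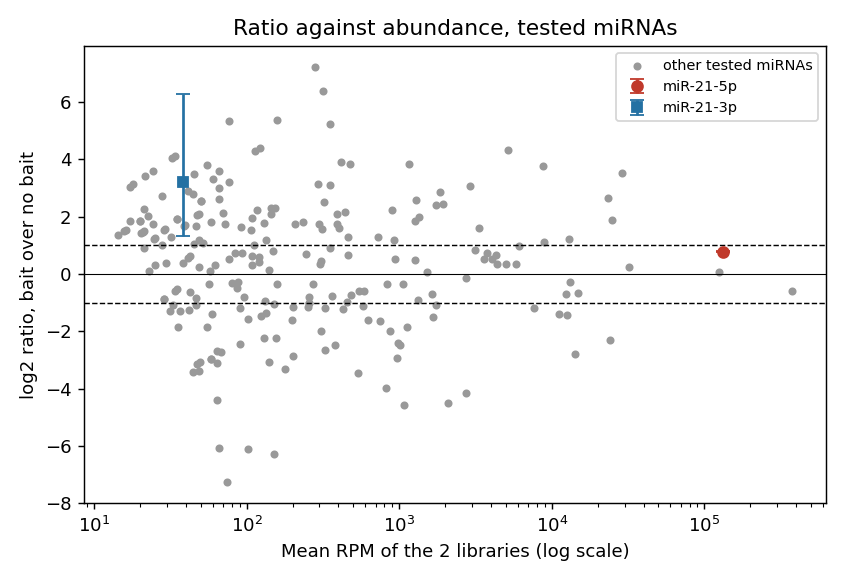
The log2 ratio of bait over no bait for 231 tested miRNAs against their mean RPM in the libraries (log scale), with 95% counting intervals for the miR-21 arms and dashed lines at the call limits of 2-fold. miR-21-5p lies among the most abundant names at 0.78, inside the limits, and miR-21-3p among rare names at 3.21, above them.

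The scaling between the libraries decided the call of the guide arm but not that of the passenger. With DESeq2 median-of-ratios size factors the ratio of miR-21-5p was 2.30 (2.27 to 2.33) and it was called higher, and it was 1.91 with edgeR TMM factors. It was 1.34 when miR-100-5p was left out of the totals, since that name held 29.6% of counts with bait and 45.3% without. Of the counts that remained without miR-100-5p, miR-21-5p made up 23.7% with bait and 17.8% without. miR-21-3p was called higher under each of 6 other settings of the scaling or values, with ratios from 7.21 without miR-100-5p to 12.4 with DESeq2 size factors. The median log2 ratio of all tested miRNAs shifted by 0.42 with DESeq2 size factors, 0.15 with TMM and -0.36 without miR-100-5p.

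**Figure D3:**
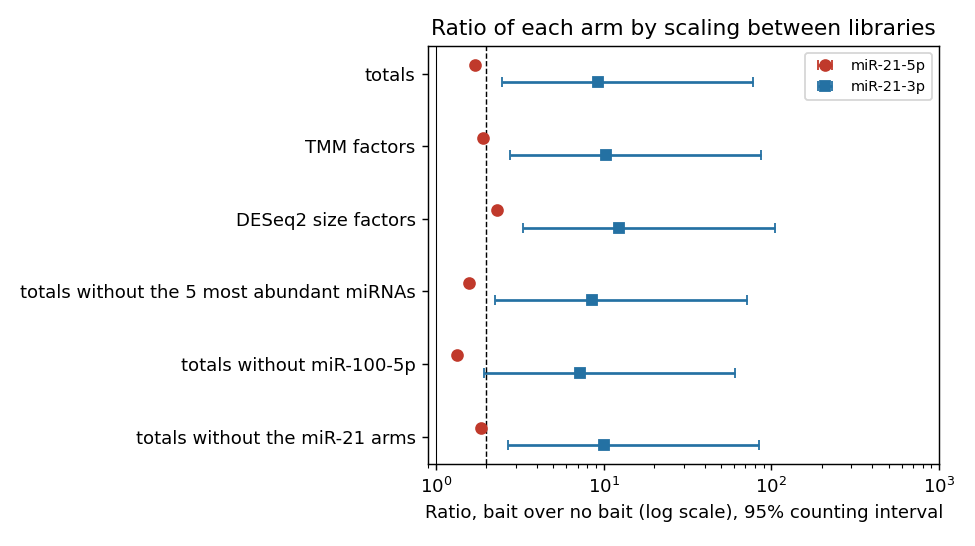
The bait over no-bait ratio (log scale) of miR-21-5p (red) and miR-21-3p (blue) under 6 scalings, with 95% counting intervals, a solid line at 1 and a dashed line at 2. miR-21-5p lies between 1.34 and 2.30 and passes 2 with DESeq2 size factors alone, and miR-21-3p lies between 7.21 and 12.4.

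Ratios of counts within a library do not depend on the scaling, and here the guide arm gained on some abundant miRNAs and lost to others. There were 1.30 counts of miR-21-5p per count of miR-92a-3p, from the oncogenic miR-17-92 cluster, with bait, and 0.795 without, a change of 1.64-fold (1.61 to 1.67). Per count of miR-100-5p, the most abundant miRNA in both libraries, there were 0.564 with bait and 0.215 without, a change of 2.62-fold (2.59 to 2.66). Per count of miR-99b-5p, of the same family, the change was 1.46-fold (1.42 to 1.51). Beside each of these 3 names the guide arm thus took a larger share of counts with bait than without.

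The change went the other way beside miRNAs that were themselves called higher. There were 3.15 counts of miR-21-5p per count of miR-125b-5p, a vertebrate relative of the worm miRNA lin-4, with bait, and 20.8 without, and the quotient of these was 0.151 (0.143 to 0.160). Beside miR-30a-5p the corresponding quotient was 0.274 (0.260 to 0.288). Among the 5 most abundant names of either library, the widest gain was beside miR-222-3p, an oncogenic miRNA typical of basal breast lines, with 20.8 counts of miR-21-5p per count with bait and 2.42 without, a change of 8.60-fold (8.33 to 8.87). miR-222-3p was called lower, with 8028 RPM with bait and 40198 RPM without, and stood just below miR-21-5p in rank in the no-bait library.

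The arms differed in ratio from each other by more than counting error if reads are taken as independent. There were 0.411 counts of miR-21-3p per 1000 counts of miR-21-5p with bait, and 0.0762 without bait. The ratio of these arm ratios was 5.40 (exact conditional 95% interval 1.44 to 45.5), a difference of 2.43 on the log2 scale that does not depend on the scaling. At the arm ratio of the bait library the no-bait library would have held 10.8 counts of miR-21-3p, against the 2 observed. The wide upper bound follows from those 2 counts. Library preparation ligates sequences with different efficiency, so the arm ratio within a library is a ratio of reads and not of molecules.

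Both libraries kept the arm order known for this hairpin. miR-21-3p was 0.0411% of the reads of both arms with bait (0.0322% to 0.0518%) and 0.00762% without (0.000923% to 0.0275%), or 1 read in 2430 with bait. Among 34 hairpins with both arms tested, miR-21 had the smallest share on its minor arm, 0.0288% by RPM averaged over the libraries, where the median was 10.3%. Hairpins with fewer than 30 counts on either arm, or with arms under unlike names, were left out. Hairpins with a scarcer minor arm may thus be missing from this ranking. With bait alone miR-25, a paralog of miR-92a, had a smaller share, 0.0240%, against 0.0411% for miR-21. The next smallest shares were those of miR-10a, from the HOX clusters, at 0.250%, let-7a, of the tumour-suppressor let-7 family, at 0.563%, and miR-222 at 0.581%.

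An arm difference of this size, in either direction, was common. It could be computed for 33 of the hairpins, since miR-324 had no count of either arm without bait. miR-21 stood at place 13 by the size of the difference, and the median size was 1.99 on the log2 scale. In 13 hairpins the minor arm had the higher ratio, as in miR-21. By the log2 difference of minor minus major arm, highest first, miR-21 stood at place 5, where the median difference was -0.30. The 3p arm was called higher while the 5p arm passed neither rule in 3 hairpins, which were let-7a, miR-454 and miR-21. By RPM averaged over the libraries the 3p arm is the minor arm of let-7a and miR-21 but the major arm of miR-454.

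The hairpins nearest to miR-21 in arm difference were miR-454, let-7a and miR-340. The arm ratio of 3p to 5p was 6.01-fold higher with bait for miR-454 (1.72 to 23.6), and 7.08-fold higher for let-7a (3.33 to 18.0). It was 2.65 for miR-340, with an interval of 0.904 to 10.6 that included 1. miR-10a, next to miR-21 in minor-arm share, had 51 counts of its 3p arm with bait and 2 without, and an arm ratio 17.2-fold higher with bait (4.51 to 146). For miR-222 the minor arm is 5p, and the arm ratio of 3p to 5p was 1.70 (1.10 to 2.69).

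**Figure D4:**
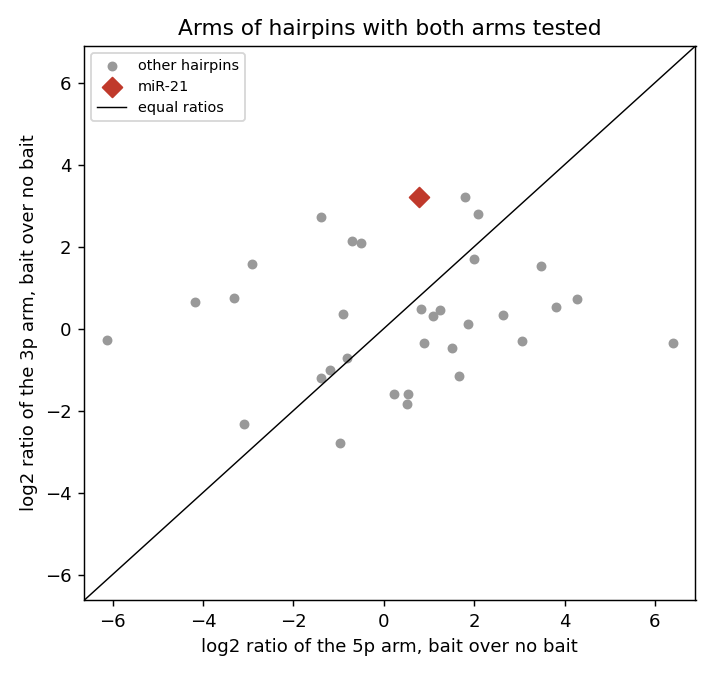
The log2 ratio of bait over no bait of the 3p arm against that of the 5p arm for 33 hairpins, with a line of equal ratios. miR-21 (diamond) lies above the line at 0.78 for its 5p arm and 3.21 for its 3p arm, 2.43 apart, and 12 other hairpins lie farther from the line.

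The seed partner miR-590-5p was at the limit of detection. It had 1 count with bait and 0 without, where 0 of 269716 counts allow up to 11.1 RPM, so no ratio was formed. The other arm of that hairpin, miR-590-3p, had 19 counts with bait and 0 without and was below the 30 counts needed for a test. Its ratio against the floor of 3 counts in the no-bait library was 1.63. The counting interval began at 1.20, but it was formed from the observed 0 counts and is not an interval of that floored ratio. Among the counted names with a sequence, the seed was thus represented almost wholly by miR-21-5p in both libraries.

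The tested miRNAs nearest to miR-21-5p in log2 ratio over these 2 libraries were miR-27b-3p, miR-22-5p and miR-146a-5p. Their ratios were 1.68 for miR-27b-3p (1.55 to 1.81), 1.76 for miR-22-5p (1.19 to 2.69) and 1.77 for miR-146a-5p (1.63 to 1.93). They were chosen for nearness, so their closeness to miR-21-5p is not a result. Those nearest to miR-21-3p were miR-340-3p, miR-455-5p and miR-582-3p. miR-340-3p had 144 counts with bait and 4 without, exactly the proportion of miR-21-3p, and miR-582-3p had 34 counts with bait and 1 without. miR-455-5p, with 549 counts with bait and 16 without, was 8.84-fold higher (5.39 to 15.6).

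Among miRNAs known, like miR-21, to be raised in breast and other tumours, 15 of 18 listed were tested, of which 9 were called higher and 3 lower, where 39.4% of all tested miRNAs were called higher and 26.8% lower. The counts were 9 and 2 with DESeq2 size factors, and 8 and 3 without miR-100-5p in the totals. Their median log2 ratio was 1.59, beside 0.55 for all tested miRNAs. The summed level of the 18 listed names went the other way, with 155311 RPM with bait and 175199 RPM without. Names with few counts without bait, such as miR-18a-5p with 2 and miR-96-5p with 1, reached the count minimum through the bait library. The higher members included the miR-17-92 members miR-17-5p at 5.71-fold (3.85 to 8.81) and miR-19b-3p at 4.71-fold (2.57 to 9.58), and the hypoxia-induced miR-210-3p at 4.93-fold (2.89 to 9.14). miR-18a-5p, miR-19a-3p and miR-20a-5p of the same cluster were also called higher, so the 9 count this cluster more than once. The largest ratio was that of miR-96-5p, with 583 counts with bait and 1 without. The lower members were miR-222-3p, miR-183-5p with a ratio of 0.351 (0.317 to 0.389), and miR-10b-5p, a miRNA linked to breast cancer invasion, with a ratio of 0.386 (0.269 to 0.560), or 0.518 and no call with DESeq2 size factors. Like miR-21-5p, the abundant miR-92a-3p, miR-182-5p and miR-221-3p passed neither rule. The ratios were 1.05 for miR-92a-3p, 1.44 for miR-182-5p and 1.27 for miR-221-3p, and those of miR-92a-3p and miR-221-3p fell below 1 without miR-100-5p in the totals.

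A seed match to miR-21-5p was looked for in the annotated MACC1-AS1 transcript of 639 bases (ENSG00000228598.1, chromosome 7, 20141916 to 20153531, plus strand). The letters searched on the transcript strand were ATAAGCT, which pairs with bases 2 to 8, ATAAGCTA, the same followed by A, and TAAGCTA, which pairs with bases 2 to 7 and is followed by A. None of the 3 was present. In the first 639 bases of 128537 annotated transcripts at least as long, 1.97% held ATAAGCT, 0.282% held ATAAGCTA and 1.03% held TAAGCTA. ATAAGCTA contains both others. The absence covers these letters in the annotated transcript, while the exact bait construct and its MS2 hairpins were not analysed here.

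In the authors' deposited table the log2 fold change (bait over no bait) was recorded as 0.78 for miR-21-5p, with a p-value of 0.156, and 3.21 for miR-21-3p, with a p-value of 0.00157. The authors' deposited table does not name its test, which sets 1 library against 1 and so compares libraries, not conditions. Its fold changes rest on the same counts.

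The labelled cell type could be set against its miRNAs. The 5 listed miRNAs of mesenchymal basal breast lines, miR-100-5p among them, were all detected and summed to 365278 RPM with bait and 502443 RPM without. Most of each sum was miR-100-5p, with 296361 RPM with bait and 452802 RPM without. Within the list miR-125b-5p and miR-29a-3p were called higher and miR-222-3p lower. The 6 epithelial miRNAs summed to 181 RPM with bait and 111 RPM without, with miR-141-3p and miR-205-5p at 0 in both libraries. miR-200b-3p held most of each sum, with 137.5 RPM with bait and 103.8 RPM without, and passed neither rule. The 6 blood cell miRNAs summed to 432 RPM with bait and 864 RPM without, with miR-223-3p and miR-144-3p at 0 in both. miR-486-5p held most of each sum, with 369 RPM with bait and 793 RPM without, and was called lower. miR-142-5p and miR-451a were also detected in both libraries, and miR-142-3p with bait. The 3 muscle miRNAs summed to 18 counts with bait and 13 without, while miR-122-5p of liver had 6 counts in each library. The part of these other cell types in the ratios of the miR-21 arms was not tested.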

How the data were processed

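Small RNA recovered from the resin was sequenced in 1 bait and 1 no-bait library. For each the authors deposited a whole-number count per mature miRNA name and an RPM. The RPM equalled the count scaled by the library total, with a largest deviation of 0.00994 RPM. A deposited table of the authors' comparison gives a log2 fold change and a p-value per miRNA. BWA is named, without a version, per the submitters' processing notes. The miRNA reference, build, trimming and treatment of multi-matching reads are given neither in the labels nor in the file headers. The no-bait library is 3.88-fold shallower and limits the precision of the 3p arm.

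Counts were scaled by library totals. Ratios have exact conditional binomial 95% intervals, arm ratios exact conditional intervals (SciPy 1.17.1), and shares Clopper-Pearson intervals, all for counting error only. The procedure was tested on simulated data. The simulated 3p count without bait was set higher than the observed one, so the arm interval was not tested at that low count. Alternatives were TMM factors (edgeR 4.0.16), DESeq2 1.42.0 size factors, totals without the 5 most abundant miRNAs, without miR-100-5p or without the miR-21 arms, the deposited RPM, and other count minimums. miRNAs were named by a rule: the arms, names sharing a seed, the 5 most abundant names per library, the 3 nearest in ratio, neighbours in rank, the nearest hairpins, and tested members of the lists. One planned list is not reported here. Where a list or rule named many, the text gives some. The planned search for seed sites was made for the 5p arm only, since the sequence table held no entry for miR-21-3p. The members, lists and rule were chosen with earlier results of these data known.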

Additional observations from a re-analysis of the deposited data

How the results depend on the processing

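The ratio of miR-21-5p was 2.30 with DESeq2 size factors, 1.91 with TMM factors, 1.86 with totals without the miR-21 arms, 1.57 without the 5 most abundant miRNAs and 1.34 without miR-100-5p, against 1.72 with totals. These follow from the changed factors, and DESeq2 size factors alone turned the call to higher. The ratio of miR-21-3p stayed within its counting interval and was called higher under each of them. Its lower bound was under 2 without miR-100-5p (1.92). With the deposited RPM the arm ratio was 5.40, as with counts.

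A minimum of 100 counts left 59 miRNAs called higher and 37 lower, against 91 and 62. With no count minimum 95 were called higher and 100 lower, so the excess of higher calls was not kept. A minimum of 10 counts put the arm difference of miR-21 at place 23 of 56 hairpins, where more hairpins are tested, and at 100 counts miR-21-3p was not tested. The calls higher or lower stayed within 1.5 times the counts given under the other settings. No paired analysis was possible because each group held 1 library. The 2 counts of miR-21-3p without bait limit each statement on that arm.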
